A study of Mus musculus with 6 samples.

Results

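A set of 10 genes of the Notch pathway was followed in mouse presomitic mesoderm (PSM), the tissue that is cut into somites: the ligands Dll1, Dll3 and Jag1, the ligand-processing ubiquitin ligase Mib1, the receptors Notch1 and Notch2, their DNA-binding partner Rbpj, and the targets Hes7, Nrarp and Hey1. They were represented by all probe sets annotated to exactly 1 of these symbols, which gave 17 probe sets of the 19606 in the deposited table and covered all 10 genes. Of these 17, 12 passed the filter on low signal and were tested, with at least 1 tested probe set for each gene. The study hybridized 6 whole-genome arrays, each with RNA from 1 pool of 3 dissected anterior PSMs at embryonic day 8.75. The mutant genotype was R26R AC/AC;T-Cre, with 3 pools, the control genotype was R26R AC/AC, also with 3, and the strain is written as C57BL6/6J for both. Every embryo, control or mutant, therefore carried the AC allele at both copies of the locus, and the genotypes differed by T-Cre. That transgene expresses Cre recombinase under control of T (Brachyury) sequences, in primitive streak cells and their mesodermal descendants. The labels do not spell out AC, which background knowledge of such mice gives as A-CREB, a protein that blocks CREB transcription factors in a dominant-negative way once Cre has acted. No pool carried T-Cre without AC, so effects of Cre and of AC cannot be told apart.

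Notch signalling passes between touching cells. A ligand on one cell, which Mib1 ubiquitinates for endocytosis, pulls on a Notch receptor of its neighbour. The receptor is then cleaved, and its intracellular part enters the nucleus, where it joins Rbpj on DNA and switches on genes of the Hes and Hey families and Nrarp. In the PSM this pathway is part of the segmentation clock: Hes7 represses its own transcription, its level oscillates, and each cycle precedes a new somite. Dll1 is the activating ligand of the PSM. Dll3, a divergent relative, acts within the cell that makes it and does not activate receptors of neighbouring cells.

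Across arrays, median signal was 491 to 535, and Pearson's r between arrays, across probe sets, was 0.975 to 0.991. The arrays fell into 2 sets, across the genotypes, by the 3′ to 5′ ratio of the dap spike-in, an RNA added before labelling, which was 23.8 and 19.6 in mutant pools 1 and 2 and 22.9 in control pool 1, against 10.2 in mutant pool 3 and 12.2 and 11.1 in control pools 2 and 3. Values within each set are given after those of all arrays.

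Setting mutant against control pools asks which PSM genes differ once T-Cre is present. Of the 12 tested member probe sets, 0 were called in limma at an adjusted p under 0.05, against 0.69% of all 11731 tested probe sets (0.443% lower and 0.247% higher in mutant). The adjustment ran over all tested probe sets. At an adjusted p under 0.1 the members again gave 0, against 2.07% of all. At an unadjusted p under 0.05, 3 of the 12 were lower in mutant (Dll1, Dll3 and 1 Rbpj probe set) and 0 were higher. The same limit was met by 7.47% of all tested probe sets in the lower direction and 6.16% in the higher one. All 3 mutant values lay below all 3 control values for 3 of the 12 (Dll1, 1 Rbpj probe set and Hes7), which is 25% of them, against 10.5% of all tested probe sets. For 0 of the 12 did all mutant values lie above all control values, against 9.53% of all. Log2 differences, mutant minus control, were below 0 for 10 of the 12, against 50.4% of all tested probe sets, and their median was −0.24, against −0.00 over all tested. Over all 17 member probe sets, with no filter, 12 were below 0 (70.6%, against 44.9% of all) and the median was −0.22, against 0.03 over all. Of the 17, 3 had all mutant pools below all control pools and 0 had them above, against 8.19% and 10.9% of all probe sets. The members were chosen with results of these data known, so these shares describe the list and are not a test of it.

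**Figure D1:**
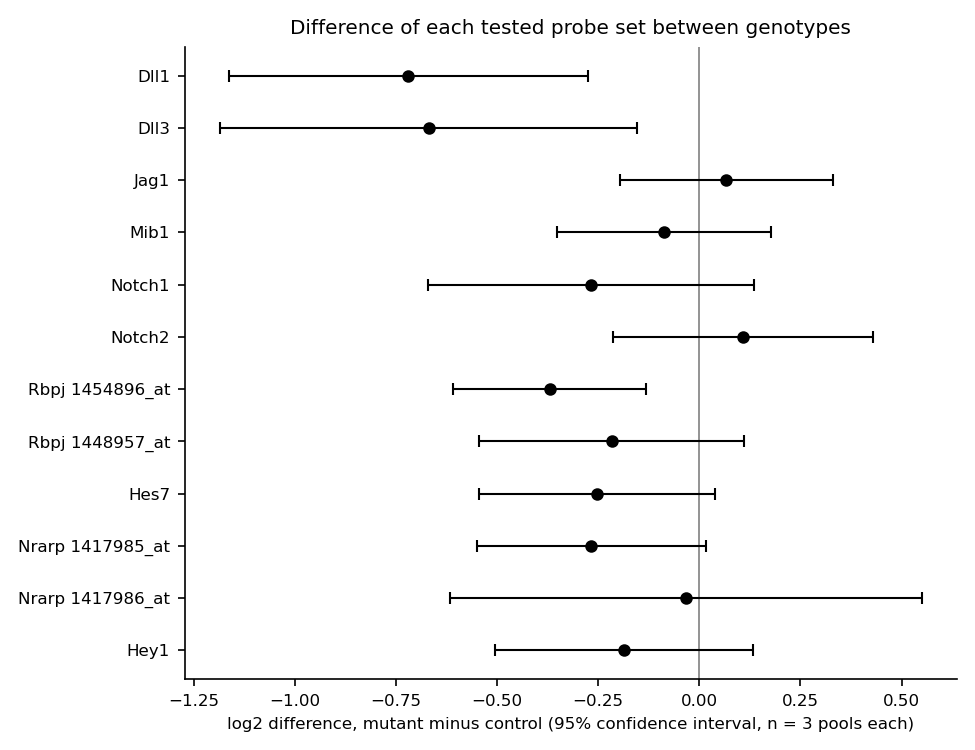
Log2 difference between genotypes (horizontal axis, mutant minus control, on the log2(signal + 1) scale) for each of the 12 tested probe sets, with points for the limma estimate and bars for its 95% confidence interval (n = 3 pools each). Dll1, Dll3 and Rbpj 1454896_at have intervals that lie below 0 before any adjustment for the number of probe sets, and the other 9 intervals include 0.

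Of the ligands, Dll1 and Dll3 had the largest differences among the 12 tested member probe sets, both toward lower signal in mutant, and Jag1 had 0.07 on the log2 scale. The Dll1 probe set read 1742.8, 1590.5 and 2844.0 in mutant pools 1, 2 and 3, against 3088.8, 3496.7 and 3266.8 in control pools 1, 2 and 3. The genotypes did not overlap, and mutant pool 3 lay far nearer to the control pools than the other mutant pools did. Mean signal was 2059 ± 684 in mutant and 3284 ± 205 in control (SD, n = 3 each). The ratio of mutant to control was 0.607 (95% confidence interval 0.446 to 0.826), a log2 difference of −0.72 (SE 0.20, adjusted p = 0.149), so Dll1 was not called. In pooled tissue, fewer cells that express a gene and less of its RNA per cell cannot be told apart. Without mutant pool 3 it was called, at −0.98 (SE 0.12, limma adjusted p = 0.0127), and without mutant pool 1 or 2 the adjusted p was 0.490 or 0.446.

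Dll3 read 1317.3, 996.7 and 1656.2 in mutant pools 1 to 3, against 1539.6, 2695.3 and 2111.0 in control pools 1 to 3. Mutant pool 3 read higher than control pool 1, so the genotypes overlapped, and the control pools were spread widely. Means were 1323 ± 330 in mutant and 2115 ± 578 in control, with a log2 difference of −0.67 (SE 0.23, adjusted p = 0.242). In both Delta-like genes mutant pool 2 was the lowest of the 6 arrays and mutant pool 3 the highest of the mutant ones.

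Jag1, a ligand of the Serrate type, had 1 tested probe set (1434070_at), with 2253.6, 1942.9 and 2403.2 in mutant pools 1 to 3 and 1981.5, 2210.7 and 2091.6 in control pools 1 to 3. The pools of both genotypes were interleaved, and the log2 difference was 0.07 (SE 0.12, 95% confidence interval −0.20 to 0.33, adjusted p = 0.855). That interval leaves room for a ratio between 0.873 and 1.26. The second Jag1 probe set (1421106_at), below the filter, read 162.7, 175.8 and 416.6 in mutant pools, against 282.3, 241.8 and 295.4 in control pools, so that mutant pool 3 held the highest value and mutant pools 1 and 2 the lowest. Mib1 had 1 tested probe set (1454740_at), which read 2603.4, 2632.5 and 2179.2 in mutant pools and 2706.4, 2765.4 and 2394.5 in control pools, again with overlap (log2 difference −0.09, SE 0.12, adjusted p = 0.804). Its other 2 probe sets were below the filter, with values of 107.6 to 399.8 in mutant and 118.5 to 291.0 in control, and differences of 0.20 and 0.21.

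The stretches before the transcription starts of the Delta-like genes are shown because these genes had the largest differences. They are 250 bases each from RefSeq (GRCm38.p6), written 5′ to 3′ in the direction of the gene. Capitals mark any match, on either strand, to TGGGAA (core of the Rbpj site), TGACG (the short core of a cAMP response element, CRE, the site of CREB), TGACGTCA (the full CRE, which contains the short core), CACGTG or CACGCG (sites of Hes and Hey proteins).
Dll1, chr17:15376933-15377182, minus strand: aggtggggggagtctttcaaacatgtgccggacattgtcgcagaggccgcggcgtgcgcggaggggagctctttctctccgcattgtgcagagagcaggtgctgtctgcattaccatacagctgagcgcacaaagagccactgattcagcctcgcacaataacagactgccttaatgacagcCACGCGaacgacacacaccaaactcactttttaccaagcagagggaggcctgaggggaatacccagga
Dll3, chr7:28301786-28302035, minus strand: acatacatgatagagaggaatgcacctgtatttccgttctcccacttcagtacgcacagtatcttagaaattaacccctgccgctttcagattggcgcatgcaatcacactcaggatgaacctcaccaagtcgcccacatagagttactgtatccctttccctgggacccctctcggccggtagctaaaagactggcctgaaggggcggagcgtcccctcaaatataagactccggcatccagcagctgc
The Dll1 window held 1 match, CACGCG, starting 68 bases before the transcription start, and the Dll3 window held none of the 5 motifs. RefSeq lists another Dll1 start further into the gene, whose window also held none. The full CRE was in 0 of the 10 member windows read and in 1.55% of all 32851 windows of this length. The 10 windows belong to 8 genes, and the 2 windows of Rbpj overlap. A match describes letters in a window and is not a site shown to be bound.

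**Figure D2:**
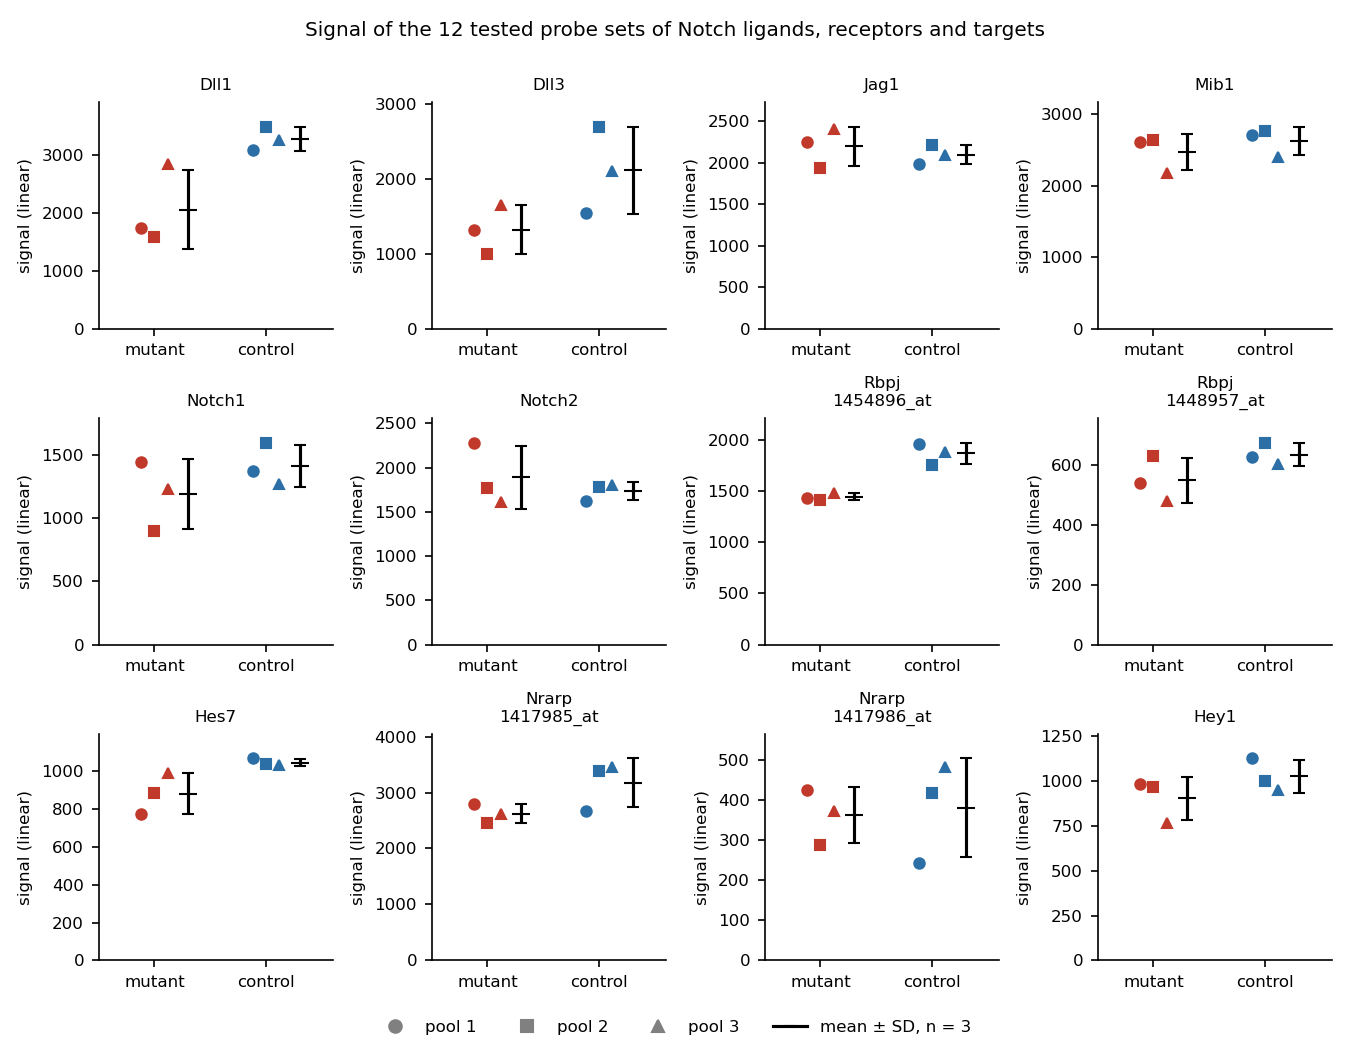
Deposited signal (vertical axes, linear scale from 0) of the 12 tested probe sets in mutant (left) and control (right) pools. Symbols stand for pool numbers, and bars for mean ± SD (n = 3 each). Dll1, Rbpj 1454896_at and Hes7 have all mutant pools below all control pools, and the other 9 overlap.

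The receptors gave no call. Notch1, the receptor with the best-known role in somite formation, read 1444.1, 900.1 and 1232.0 in mutant pools 1 to 3 on its tested probe set (1418634_at), against 1375.6, 1597.6 and 1272.7 in control pools 1 to 3. Mutant pool 2 stood alone at the low end, while mutant pool 1 exceeded 2 of the control pools. The log2 difference was −0.27 (SE 0.18, adjusted p = 0.566), and without mutant pool 2 it was −0.08. The second Notch1 probe set (1418633_at), below the filter, read 299.3, 216.5 and 235.8 in mutant pools and 305.5, 298.3 and 276.8 in control pools, with mutant pool 2 again lowest and a difference of −0.24. Notch2, the other receptor among the 10 genes, read 2284.1, 1772.8 and 1611.5 in mutant pools, against 1625.1, 1779.8 and 1804.3 in control pools. Its highest and its lowest value were both in mutant pools, and the log2 difference was 0.11 (SE 0.14, adjusted p = 0.801).

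Rbpj, the protein through which cleaved Notch receptors reach DNA, had 3 probe sets. The one with the highest signal (1454896_at) read 1427.8, 1413.6 and 1479.4 in mutant pools 1 to 3, against 1960.1, 1749.8 and 1882.2 in control pools 1 to 3. The genotypes did not overlap and, unlike those of Dll1, the mutant pools lay close together (1440 ± 34.6 in mutant and 1864 ± 106 in control, SD, n = 3 each). The ratio was 0.773 (95% confidence interval 0.655 to 0.913), a log2 difference of −0.37 (SE 0.11, adjusted p = 0.172). With 1 array left out it lay between −0.42 and −0.33. The second Rbpj probe set (1448957_at) read 540.6, 630.2 and 480.1 in mutant pools and 629.8, 676.6 and 603.2 in control pools, with overlap and a log2 difference of −0.22 (SE 0.15, adjusted p = 0.566), which lay between −0.32 and −0.12 with 1 array left out. The third (1418114_at), below the filter, pointed the other way, with 243.7, 260.8 and 299.0 in mutant pools and 207.4, 274.3 and 248.6 in control pools (0.14). The 3 probe sets thus did not give 1 direction.

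The Rbpj window is shown because it held the Rbpj core more than once.
Rbpj, chr5:53590096-53590345, plus strand: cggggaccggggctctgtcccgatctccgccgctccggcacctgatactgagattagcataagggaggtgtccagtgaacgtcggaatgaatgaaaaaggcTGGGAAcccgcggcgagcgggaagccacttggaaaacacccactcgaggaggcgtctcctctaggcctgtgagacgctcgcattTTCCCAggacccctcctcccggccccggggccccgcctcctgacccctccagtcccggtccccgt
TGGGAA began 149 bases before the transcription start on the gene's strand, and its reverse complement TTCCCA 65 bases before it. The core was in 3 of the 10 member windows, namely this one, an overlapping Rbpj window of a second start, and that of Hes7, and in 21.6% of all windows.

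Hes7, Hey1 and both Nrarp probe sets, the targets, had lower mean signal in mutant, and none was called. Hes7, the oscillating repressor of the segmentation clock, read 773.2, 881.8 and 987.8 in mutant pools 1 to 3, against 1067.1, 1036.0 and 1031.7 in control pools 1 to 3. The control pools lay within a narrow band and every mutant pool lay below it, mutant pool 3 by little. Means were 881 ± 107 in mutant and 1045 ± 19.3 in control (SD, n = 3 each), a ratio of 0.839 (95% confidence interval 0.686 to 1.03) and a log2 difference of −0.25 (SE 0.13, adjusted p = 0.440). Without mutant pool 1 the difference was −0.16 (adjusted p = 0.814). An oscillating gene is read here as an average over 3 PSMs per pool, which can hold different phases of the cycle.

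Nrarp, which encodes an ankyrin repeat protein that binds and restrains the Notch intracellular part, had 2 tested probe sets. The first (1417985_at) read 2799.5, 2455.3 and 2615.7 in mutant pools and 2674.7, 3390.0 and 3461.2 in control pools, where control pool 1 lay among the mutant pools. Its log2 difference was −0.27 (SE 0.13, adjusted p = 0.399). The second (1417986_at), just above the filter, read 426.5, 288.8 and 372.3 in mutant pools and 244.0, 417.8 and 482.1 in control pools, with control pool 1 the lowest of all (−0.03, SE 0.26, adjusted p = 0.972). Hey1, a Hes-related repressor, read 982.3, 963.2 and 766.4 in mutant pools and 1125.4, 999.9 and 948.7 in control pools. Mutant pool 3, which was the highest mutant pool for Dll1, Dll3 and Hes7, was the lowest of the 6 for Hey1, and the log2 difference was −0.19 (SE 0.14, adjusted p = 0.625). It was −0.07 without mutant pool 3 and −0.12 without control pool 1.

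The windows of 2 targets, Hes7 and Nrarp, each of which held a Hes and Hey site, are shown next. No window of Hey1 was read.
Hes7, chr11:69120203-69120452, plus strand: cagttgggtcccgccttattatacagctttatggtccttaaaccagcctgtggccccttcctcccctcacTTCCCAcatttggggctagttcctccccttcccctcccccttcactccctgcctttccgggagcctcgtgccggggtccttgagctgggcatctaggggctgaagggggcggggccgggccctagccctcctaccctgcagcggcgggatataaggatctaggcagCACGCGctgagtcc
Nrarp, chr2:25180508-25180757, plus strand: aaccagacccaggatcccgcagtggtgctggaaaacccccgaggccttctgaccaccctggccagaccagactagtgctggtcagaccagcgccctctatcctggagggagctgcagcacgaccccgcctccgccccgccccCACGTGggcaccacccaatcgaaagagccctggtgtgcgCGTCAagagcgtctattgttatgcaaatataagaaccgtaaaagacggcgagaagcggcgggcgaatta
In Hes7 the reverse complement of the Rbpj core began 180 bases and CACGCG 14 bases before the transcription start. In Nrarp CACGTG began 108 bases and the reverse complement of the short CRE core 69 bases before it. CACGTG was in 1 of the 10 member windows and 6.02% of all windows, CACGCG in 4 of 10 and 7.62% of all, and the short CRE core in 2 of 10, those of Nrarp and Jag1, and 17.8% of all. The window of Notch1 held none of the 5 motifs, and that of Notch2 held CACGCG once.

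The lower signals were not even across mutant pools. Dll1 stood at 53.1%, 48.4% and 86.6% of the control mean in mutant pools 1, 2 and 3, and Dll3 at 62.3%, 47.1% and 78.3%. Lfng, the sugar transferase that modifies Notch receptors and cycles with the clock, was not a member and lay below the filter, and it stood at 56.4%, 48.1% and 96.2% (signal 132.9, 113.3 and 226.9 in mutant pools, against 223.1, 246 and 238.2 in control pools). Hes7 stood at 74%, 84.4% and 94.5%, with mutant pool 1 lowest, while Rbpj 1454896_at stood evenly at 76.6%, 75.8% and 79.4%. The summed signal of 13 PSM and somite markers followed the same order of mutant pools as Dll1, at 72.1%, 62.7% and 89.6% of its control mean, and control pool 1 stood at 88.6%. Its brightest marker, Cyp26a1, had another order, with 1465.1, 2521.5 and 3918.1 in mutant pools 1, 2 and 3. Mutant pools 1 and 2 and control pool 1 are also the arrays of high dap ratio (23.8, 19.6 and 22.9), against 10.2 in mutant pool 3. The part of the PSM and somite marker shift in the Notch values was not tested.

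**Figure D3:**
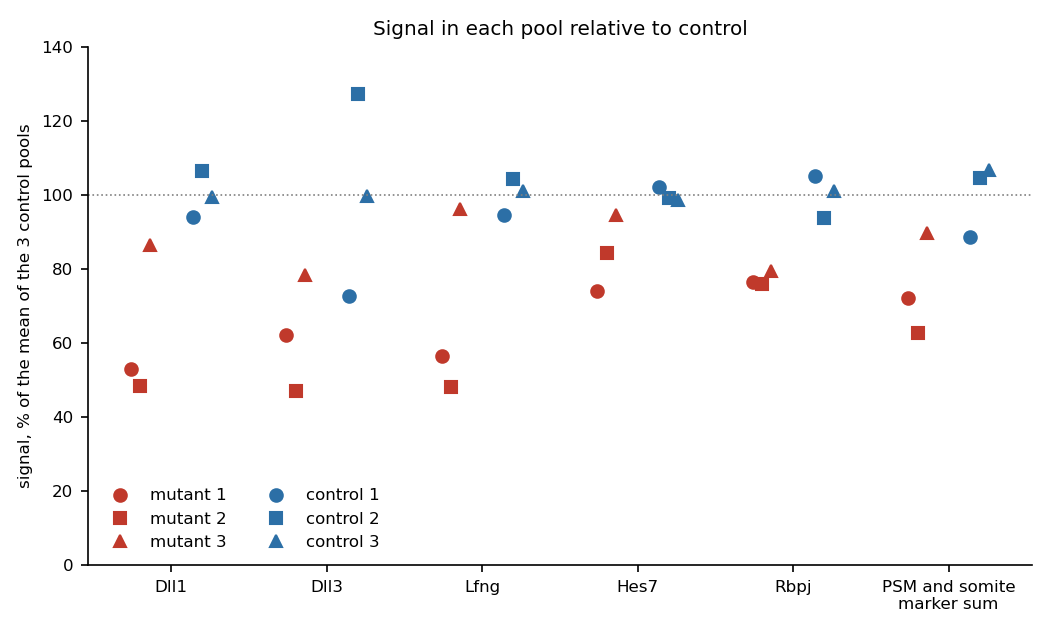
Signal in each mutant (red, left) and control (blue, right) pool as a percentage of the mean of the 3 control pools (vertical axis, linear), for 5 genes and for the summed signal of 13 PSM and somite markers. Mutant pools 1 and 2 lie far below mutant pool 3 for Dll1 and Lfng (53.1% and 48.4% against 86.6% for Dll1), while the 3 mutant pools lie between 75.8% and 79.4% for Rbpj 1454896_at.

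Markers of the PSM and of other cell types that the dissection could hold were summed per array. Each marker gene was read on 1 probe set only, the one with the highest mean log2 signal. The 13 PSM and somite markers with a probe set, of 15 listed, summed to signals of 8553 to 12223 in mutant and 12085 to 14564 in control. Of these 13, 11 had a negative and 2 a positive log2 difference. The somite boundary gene Ripply2 was called lower (−1.56, limma adjusted p = 0.00150) and Pax3, which also marks dorsal neural tube, was called higher (0.94, adjusted p = 0.0314), and the other 10 tested ones were not called. The sums of 10 (of 14 listed) markers of endothelium, which also uses Notch1, Jag1 and Hey1, were 6245 to 9207 in mutant and 11300 to 12300 in control. Those of 6 (of 10 listed) lateral and intermediate mesoderm markers were 3639 to 4388 in mutant and 6145 to 6363 in control. Sums were 24022 to 25474 in mutant and 16199 to 18054 in control for all 11 surface ectoderm markers listed, and 13848 to 14663 in mutant and 10529 to 11080 in control for all 9 gut endoderm markers listed. For 7 (of 10 listed) blood markers they were 44586 to 62561 in mutant and 32059 to 44561 in control, for 3 (of 5 listed) notochord and floor plate markers 3714 to 5258 in mutant and 3118 to 3909 in control, and for 6 (of 10 listed) neural tube markers 7636 to 10580 in mutant and 7258 to 9482 in control. A sum is carried by its brightest genes, and single markers did not all follow it. The numbers of markers with a negative and a positive log2 difference were 9 and 1 for endothelium, 3 and 3 for lateral and intermediate mesoderm, 0 and 11 for surface ectoderm, 1 and 8 for gut endoderm, 1 and 6 for blood, 0 and 3 for notochord and floor plate, and 1 and 5 for neural tube. Over all probe sets, 44.9% had a negative log2 difference. Called lower were 1 endothelium marker and 2 lateral and intermediate mesoderm markers. Called higher was 1 marker each for surface ectoderm and gut endoderm, the same gene in both. The blood, neural tube, and notochord and floor plate lists had no call. These lists share some genes, none of their markers was at 0 on any array, and their part in the Notch values was not tested.

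Within the 3 arrays of high dap ratio, each value resting on 2 mutant pools and 1 control pool, the log2 difference was −0.89 for Dll1, −0.43 for Dll3, −0.46 for Rbpj 1454896_at, −0.37 for Hes7 and −0.03 for Nrarp 1417985_at. Within the other 3 arrays, with 1 mutant and 2 control pools, the same values were −0.25, −0.53, −0.29, −0.07 and −0.39. Notch1 1418634_at (−0.27 in the high-ratio arrays and −0.21 in the others), Rbpj 1448957_at (−0.11 and −0.41), Hey1 (−0.21 and −0.35) and Mib1 1454740_at (−0.05 and −0.24) were negative in both sets as well, and Jag1 1434070_at was positive in both (0.08 and 0.16). Notch2 (0.31 and −0.15) and Nrarp 1417986_at (0.52 and −0.27) differed in sign between the sets. With the ratio class as a covariate, Dll1 was called (−0.57, SE 0.13, adjusted p = 0.0198) and 1 of the 12 member probe sets was called in all, while 555 of all tested probe sets were. With array quality weights Dll1, Dll3, Rbpj 1454896_at and Nrarp 1417985_at were called, all lower in mutant, and so were 1196 of all tested probe sets. Those weights ran between 0.315 for control pool 1 and 4.29 for control pool 3, so the control side of these 4 calls rests mainly on 1 array.

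The rest of the Notch pathway was covered by a list of 60 other genes, of which 42 had probe sets (70 in all) and 28 had tested ones (38). Of the 38, 0 were called, against 0.69% of all tested probe sets. At an unadjusted p under 0.05, 4 were lower (10.5%, against 7.47% of all) and 1 was higher (2.63%, against 6.16% of all). Log2 differences were below 0 for 19 (50%, against 50.4% of all tested probe sets), with a median of 0.01. All mutant pools lay below all control pools for 2 of the 38 (5.26%, against 10.5% of all). They lay above for 2, against 9.53% of all. Among the nuclear cofactors, Crebbp, the CREB-binding protein that also serves as a histone acetyltransferase for Notch targets, disagreed between probe sets. Crebbp 1436983_at read 706.7, 695.4 and 612.0 in mutant pools, all above the 544.7, 468.7 and 485.5 of control pools (log2 difference 0.43, SE 0.14, adjusted p = 0.212), while the other 2 had −0.31 and −0.25. The 16 nuclear cofactor probe sets had a median of −0.10, the 11 of modifying enzymes and ubiquitin ligases −0.04, the 5 of receptor cleavage 0.16 and the 3 of other Hes and Hey genes 0.08. The corepressors Ctbp1 (−0.30, adjusted p = 0.281) and Tle4 (−0.42 on 1450853_at, adjusted p = 0.290) had lower mean signal in mutant. The other Tle4 probe set, below the filter, had 0.03. Snw1, a coactivator, had 0.38 (adjusted p = 0.440) on 1429003_at, 0.06 on its brighter tested probe set and 0.09 on 1 below the filter. Without mutant pool 2 or 3 the Snw1 value of 0.38 was 0.24 or 0.61.

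Of the ubiquitin ligases, Itch, which marks Notch receptors for breakdown, read 1406.4, 1426.3 and 1331.4 in mutant pools, all below the 1801.3, 1533.3 and 1807.0 of control pools (log2 difference −0.30, SE 0.12, adjusted p = 0.299), while its other 2 probe sets, below the filter, had 0.12 and 0.39. Nedd4, a relative of Itch, had −0.36 (adjusted p = 0.448), −0.06 and 0.11 on its 3 tested probe sets. The first of these values was −0.18 without mutant pool 2 (limma adjusted p = 0.840) and −0.61 without mutant pool 3, where it was called (limma adjusted p = 0.0487). The gamma-secretase subunit Aph1a had −0.36 (adjusted p = 0.324) on its tested probe set and −0.25 and 0.38 on those below the filter, and Dlk1, a ligand-like membrane protein, had 0.45 (SE 0.28, adjusted p = 0.522), which was 0.10 without control pool 1 and 0.66 without control pool 3. Hes1, the Hes family target used in many tissues, read 787.5, 778.2 and 783.3 in mutant pools and 650.2, 819.7 and 823.4 in control pools, so that the mutant pools lay within the control range (0.04, SE 0.14, adjusted p = 0.930). Hes5 had 0.08 (adjusted p = 0.906) on its tested probe set, whose identifier marks possible cross-hybridization. On the Hes5 probe set below the filter the difference was −0.03. Heyl had no probe set annotated to that symbol alone among the values analysed here.

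**Figure D4:**
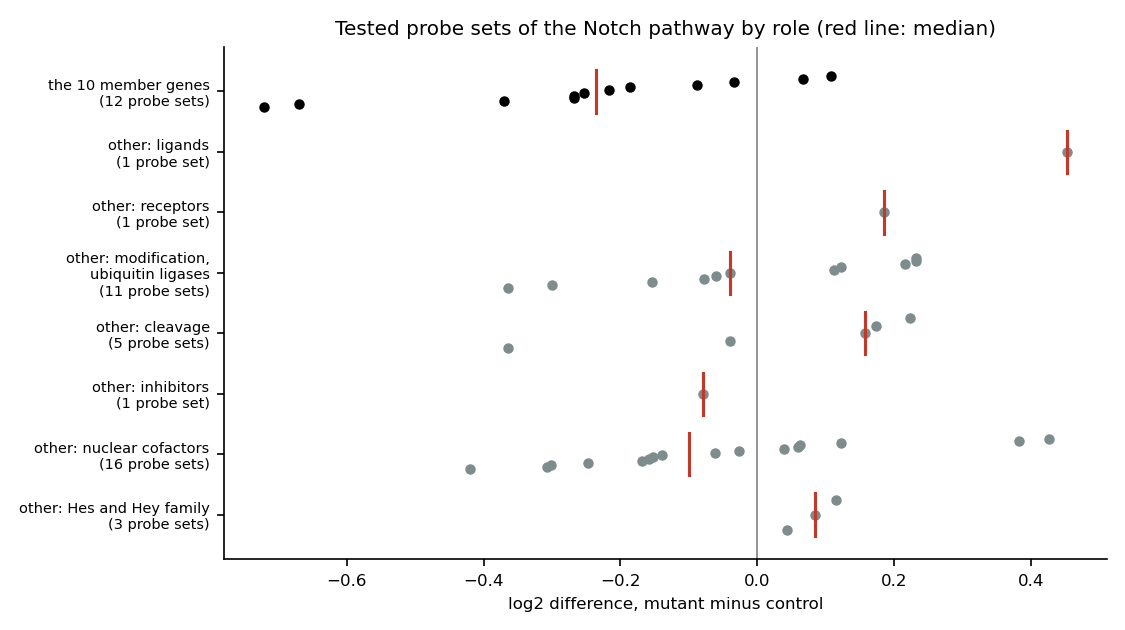
Log2 difference, mutant minus control (horizontal axis), of each tested probe set of the 10 member genes and of the other Notch pathway genes, grouped by role. Each point is 1 probe set and red lines are medians. The members have a median of −0.24 with Dll1 and Dll3 at the low end, and the 38 other probe sets lie between −0.42 and 0.45.

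Genes whose signal followed that of a member most closely over the 6 arrays were found among 7097 tested genes outside the members. For Dll1 they were Lef1, a nuclear mediator of Wnt signalling (Pearson's r = 0.995, log2 difference −0.46), Stxbp4 (0.993), Topors (0.991), Xpot (0.986) and Mmd (0.983). For Notch1 they were Sptan1 (0.980), Zmynd8 (0.978), Mmp14, a membrane-bound metalloprotease (0.974), Numa1 (0.973) and Scpep1 (0.973). For Hes7 they were Fam76b (0.998), Rab2a (0.997), Nup153 (0.996), Zfp91 (0.993) and Pdcl (0.987). These r values describe 6 arrays that share a scaling and fall into 2 genotypes. Among so many candidates 247 genes had an r above 0.9 with Dll1, 66 with Notch1 and 173 with Hes7.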

How the data were processed

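RNA of 6 pools was measured on Affymetrix arrays. Per the deposited table, each array has 1 linear intensity for every probe set, which the authors had summarised and scaled. Expression Console (Affymetrix) and MAS5 are named in the submitters' processing notes. Versions, the scaling target and a genome build are not given in the sources used here. The deposited scaling was kept and log2(signal + 1) was analysed. After 55 array controls were removed, probe sets whose mean log2 signal lay under the 40th percentile (349 as a geometric mean signal) were not tested. Mutant and control pools were compared in all 11731 others with limma 3.58.1 in R 4.3.3 (linear model on genotype, two-sided moderated test with a mean-variance trend, p adjusted over all tested probe sets by Benjamini-Hochberg, called under 0.05). Log2 differences are mutant minus control. Members below the filter are given by their values only. Symbols came from the platform's annotation, and the Entrez identifiers of all 10 members matched RefSeq. The fit was also tried on simulated data with independent noise in each array. Those data held no sets of arrays like those of the dap ratio, so they do not show how the fit behaves with them.

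The members, lists, motifs and alternatives were chosen with earlier results of these data known. Named genes were every member probe set, up to 8 other pathway genes with the smallest p, the genes Lfng, Hes1, Hes5 and Heyl where measured, and the 5 genes most like Dll1, Notch1 and Hes7. Ripply2 and Pax3 are named as the called PSM and somite markers, and Cyp26a1 as the brightest one. The labels call the pools biological replicates, and nothing states how embryos were assigned to them. Only 3 pools per genotype limit the precision. A permutation of 3 against 3 values cannot go below 0.1, so single values were not tested in that way.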

Additional observations from a re-analysis of the deposited data

How the results depend on the processing

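Leaving out 1 array at a time gave 0 to 1 called member probe sets (1 without mutant pool 3, which was Dll1), 0 to 1 other Notch pathway probe sets (Nedd4, also without mutant pool 3) and 23 to 151 probe sets in all, against 0, 0 and 81 with all arrays. Array quality weights gave 4, 4 and 1196, and the spike-in ratio class as a covariate gave 1, 0 and 555. Over all tested probe sets the count was 48 with the filter at the 60th percentile, 243 at an adjusted p under 0.1, 123 with 1 probe set per gene and 4 without moderation. None of these 4 settings called a member, and unadjusted p under 0.05 held for 1 to 3 of the member probe sets in them. Across 20 alternatives, the 12 tested member probe sets kept their direction and their side of the threshold in 222 of 235 comparisons. They became called in 6 and turned sign in 7. The log2 difference cannot change with another filter, threshold or choice of probe sets, without trend or moderation, or with the replicate block. Those settings therefore tried only the side of the threshold. Sign turned with quality weights for Mib1 1454740_at (0.021) and Hes1 (−0.052) and with the ratio class for Nrarp 1417986_at (0.13). With 1 array left out, values spanned −2.03e-05 to 0.15 for Jag1 1434070_at, −0.15 to 0.00055 for Mib1 1454740_at, −0.037 to 0.21 for Notch2, −0.33 to 0.12 for Nrarp 1417986_at, −0.069 to 0.10 for Hes1 and −0.071 to 0.30 for Hes5 1456010_x_at. The cause of these turns was not tested. Quantile normalization and median centring moved the median of all probe sets by −0.03 each. With the replicate block, 0 member, 0 other Notch and 120 of all probe sets were called, and Dll1 had an adjusted p of 0.0803. Residuals of equally numbered mutant and control pools correlated at 0.195, −0.453 and 0.370, and the best match of an array bore its own number in 2 of 6 cases, so the pools were not treated as pairs. Low signal limits the 5 member probe sets below the filter, and whether it lies near background was not tested.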
